A study of Mus musculus with 12 samples.

Results

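The 7 genes described here, members of the endosomal toll-like receptor (TLR) system, were read in mouse ear skin: the receptors Tlr7, Tlr8 and Tlr9, the transport chaperone Unc93b1, the adaptor Myd88, the kinase Irak4 and the transcription factor Irf5. They were chosen by gene name among the non-control spots of the arrays, which gave 7 genes on 14 probes, out of 24080 genes tested and 56605 probes on each array. RNA of whole ear skin from C57BL/6J mice was hybridized to 12 single-colour 60-mer arrays. Wild-type mice (WT) were compared with 4 knockout genotypes, namely Card14-/-, Tlr7-/-Tlr9-/-, Tlr9-/- and Tlr7-/-, and each of the 5 genotypes was taken untreated, at 0 h, or 4 h after both ears had received 1 dose of 62.5 mg of a cream with 5% imiquimod (IMQ). The labels do not describe how the 3 knockout alleles were made.

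Untreated skin had 1 array in each genotype. After IMQ, Tlr7-/-Tlr9-/- and Card14-/- had 2 arrays each, and the other 3 genotypes had 1. Skin RNA of 6 to 8 mice was pooled and 200 ng of it labelled per array, so no p-value measures the spread between single mice. Whether the 2 repeat arrays came from separate pools is not stated. Within genotypes the p-values rest on the spread of the repeat arrays. In the other fits they rest on how far the values of the groups depart from the fit. No group received cream without imiquimod, so effects of the drug, the cream base, handling and time cannot be told apart. Whole skin was measured, so fewer cells of a type and less RNA per cell cannot be told apart either. Slide 2 held the 4 IMQ arrays of the genotypes with repeats, and slide 1 the 8 other arrays. Between 60.1% and 65.7% of spots were well above background. The 75th percentile of the signal was 1070 to 1236 on untreated arrays and 527 to 779 on IMQ arrays, so signal strength went with treatment, and its part in the results was not tested.

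TLR7 and human TLR8 recognise single-stranded RNA, and TLR9 recognises unmethylated CpG DNA, inside endosomes and lysosomes. UNC93B1 carries these receptors from the endoplasmic reticulum to those compartments. An occupied receptor binds MYD88, which assembles with IRAK4 into a signalling complex that activates NF-kB and IRF5 and so the genes of inflammatory cytokines and type I interferons. Imiquimod is a small-molecule ligand of mouse TLR7. In skin these receptors are known mainly from plasmacytoid dendritic cells, macrophages and B cells.

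Each value is the log2 processed signal of 1 probe, so the probes define what was read. The stretches below are those of the genes on which probes differed, 30 of 60 bases each, from the array files. Capitals mark a run of 5 TC dinucleotides in the first sequence and the polyadenylation hexamer AATAAA in the Irf5 sequence.
Tlr7, brightest probe, first 30 bases: TCTCTCTCTCtgatactgaactgtaccaga
Tlr7, second probe, first 30 bases: cataaatgaaggtctgaatttttcctaaca
Tlr8, brightest probe, last 30 bases: tatcctctctccaaaacttctcacatgccc
Tlr8, probe on the RefSeq mRNA, last 30 bases: tgactgaaaatgattcacggtatgacgatt
Irf5, brightest probe, last 30 bases: aggcctgaggtttcatttcccctaaacatt
Irf5, second probe, last 30 bases: gttgttttcttcctgtcttctAATAAAaaa
Irak4, brightest probe, last 30 bases: ccgctgaagtaaaaagacatataacttcct
Irak4, second probe, last 30 bases: gaattcctgatagatcagttgtagtgattt

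A run of 5 or more TC or CT dinucleotides is present in 0.0919% of all 56605 probes, and AATAAA in 9.77%. The brightest Tlr7 probe also holds 1 AATAAA, in its bases not shown. The Tlr7 probes lie on mm9 at chrX:163742863-163742922 and chrX:163743146-163743205, minus strand, 223 bases apart. The third Tlr7 probe, at chrX:163747214-163747273, was not well above background on any of 12 arrays. The brightest Tlr8 probe lies at chrX:163679328-163679387, minus strand, and is assigned in the files to a predicted Tlr8 transcript. It is 1327 bases downstream of the probe on the Tlr8 RefSeq mRNA, at chrX:163680715-163680774, which was not well above background on any array. Tlr8 is the next gene to Tlr7 in the RefSeq table, with 0 genes wholly between them. No annotation of mm9 was used here, so exon and UTR positions are not given.

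Tlr7 was low in every sample that lacks it and present in every other sample. On the brightest probe the log2 signal in WT was 7.94 untreated and 8.12 after IMQ. It was 7.36 and 7.38 in Tlr9-/-. In Card14-/- it was 7.68 untreated and 8.08 and 8.11 after IMQ. Tlr7-/- gave 5.49 untreated and 4.03 after IMQ, the latter not well above background. Tlr7-/-Tlr9-/- gave 5.34 untreated, and 5.85 and 5.68 after IMQ. The arrays with and without Tlr7 did not overlap, and the lowest value with the gene, 7.36, exceeded the highest without it, 5.85.

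Averaged over groups, this probe read 7.76 ± 0.34 (SD, 6 groups) with Tlr7 and 5.16 ± 0.77 (SD, 4 groups) without it. The group mean with Tlr7 was at least 5.98-fold that without it, with the array below background set to the lowest signal well above background. The bound holds for this scale only, since the means were 2.90-fold apart after normexp, which adds an offset, and 3.78-fold in the authors' deposited table. The second probe read 7.26 ± 0.39 (SD, 6 groups) with Tlr7 and 4.06 ± 0.27 (SD, 4 groups) without it, at least 8.54-fold apart on this scale, 2.67-fold after normexp and 4.08-fold in the deposited table. The arrays with and without Tlr7 did not overlap on either probe on any of the 4 scales. It was well above background on 7 of 7 arrays with Tlr7 and on 1 of 5 arrays without it, against 4 of 5 on the brightest probe. Signal above background in Tlr7-deficient skin was seen mainly on the brightest probe. On the Tlr7-/- array after IMQ it was seen on the second probe (4.45) and not on the brightest (4.03). The part of the TC run in this signal was not tested.

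The difference in level due to the Tlr7 locus was read in a limma fit of genotype and treatment, averaging Tlr7-/- minus WT and Tlr7-/-Tlr9-/- minus Tlr9-/-. It called 0 of the 7 genes, against 0.0% of the 24080 genes tested, of which 917 had an unadjusted p under 0.05. For Tlr7 itself the difference was -2.55 ± 0.33 (SE, adjusted p = 0.66). Tested probe by probe, where again 0.0% of 37125 probes were called, the second Tlr7 probe had an adjusted p of 0.0515 (limma), and as it was mostly below background without Tlr7 its difference is given only as the bound above. The targeted gene therefore missed the threshold of this fit on both probes, and a miss by another gene shows little. With the slide as a block 0.00415% of genes were called, and Tlr7 had -2.75 (adjusted p = 0.15).

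Tlr8 read higher wherever Tlr7 was missing, though the margin at its narrowest lay within the spread of repeat arrays. Its brightest probe read 5.35 untreated and 5.37 after IMQ in WT. In Tlr9-/- it read 5.24 and 5.00. In Card14-/- it read 5.32 untreated and 5.29 and 5.78 after IMQ. Without Tlr7 it read 5.91 and 6.28 in Tlr7-/-, and in Tlr7-/-Tlr9-/- 5.90 untreated with 6.35 and 6.28 after IMQ. All 5 arrays without Tlr7 lay above all 7 arrays with it, as the highest of the latter was 5.78 and the lowest of the former 5.90.

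The group mean of Tlr8 was 6.10 ± 0.23 (SD, 4 groups) without Tlr7 and 5.30 ± 0.18 (SD, 6 groups) with it. Within a treatment, Tlr7-/- exceeded WT by 0.56 untreated and 0.91 after IMQ. Tlr7-/-Tlr9-/- exceeded Tlr9-/- by 0.66 untreated and 1.31 after IMQ, the last pair on different slides. In the fit the Tlr7 effect on Tlr8 was 0.86 ± 0.13 (SE, limma), with an adjusted p of 0.866, so it was not called. It was 0.80 with the slide as a block, 0.76 under 75th percentile scaling, 0.40 after normexp background correction and 0.56 in the authors' deposited table. The ranges did not overlap on any of these scales. After normexp the highest array with Tlr7 read 6.97 and the lowest without it 6.99.

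Non-overlap of this kind held for 20 of the 24080 genes, 0.0831%, and for 2 of the 7 described, Tlr7 and Tlr8. These were the 2 on chromosome X among the 20, and the share of all tested genes on that chromosome is not given. Of these 20 genes, 13 were higher and 7 lower without Tlr7. The Tlr8 reading rests on 1 probe. Of its 3 other probes, the one at chrX:163680628-163680685 was well above background on 2 of 12 arrays, namely WT after IMQ at 4.57 and Tlr7-/- after IMQ at 4.21. The other 2 were not well above background on any array.

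**Figure D1:**
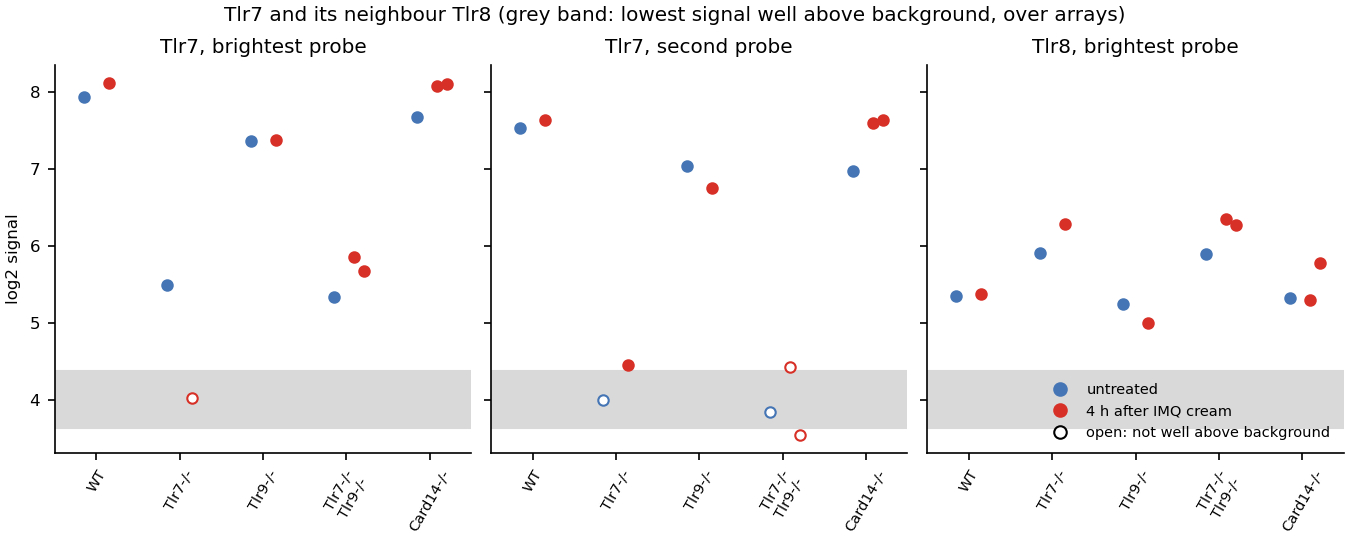
Log2 signal (y axis) of the brightest Tlr7 probe, the second Tlr7 probe and the brightest Tlr8 probe in the 5 genotypes (x axis), 1 point per array, blue untreated and red 4 h after IMQ cream; open points are not well above background and the grey band spans the lowest signal well above background on the 12 arrays, 3.63 to 4.38. Tlr7 lies at 7.36 to 8.12 with the gene and at 4.03 to 5.85 without it on the brightest probe, and Tlr8 at 5.00 to 5.78 with Tlr7 and 5.90 to 6.35 without it.

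Tlr9, the DNA receptor, differed little between samples. It read 11.22 untreated and 11.39 after IMQ in WT and 11.05 and 11.18 in Tlr7-/-. Card14-/- gave 11.31 untreated and 11.27 and 11.30 after IMQ. In the genotypes labelled as lacking it, the values were 10.95 and 11.05 in Tlr9-/-, and 11.08 untreated and 11.33 and 11.28 after IMQ in Tlr7-/-Tlr9-/-. Arrays labelled Tlr9-deficient spanned 10.95 to 11.33 and the others 11.05 to 11.39, so they overlapped. The Tlr9 effect on level was -0.11 ± 0.07 (SE, adjusted p = 0.661), and 0 of the 7 genes were called, against 0.0498% of all genes. The only probe lies at chr9:106128979-106129038 on mm9, at base 3242 of the mRNA it was designed on, and the labels do not say whether the Tlr9 allele deletes that stretch, so it does not check the genotype.

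Unc93b1 read highest in WT, on 1 array per treatment, but untreated WT exceeded Tlr7-/- after IMQ by only 0.02. It read 10.37 untreated and 10.61 after IMQ in WT, 10.00 and 10.35 in Tlr7-/-, and 10.18 and 10.06 in Tlr9-/-. In Tlr7-/-Tlr9-/- it read 10.21 untreated and 10.14 and 10.05 after IMQ, and in Card14-/- 10.12 untreated and 10.06 and 10.07 after IMQ. It was higher after IMQ in WT and Tlr7-/- and lower in the other 3 genotypes. The average response was 0.06 ± 0.10 (SE, adjusted p = 0.669), and without the Tlr7-/- pair it was -0.01.

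Myd88, the adaptor shared by nearly all TLRs, read higher after IMQ in 4 of the 5 genotypes and about the same in WT. It was 11.70 and 11.71 in WT, 11.57 and 11.70 in Tlr7-/-, and 11.62 and 11.80 in Tlr9-/-, untreated first. In Tlr7-/-Tlr9-/- it was 11.61 untreated and 11.88 on both IMQ arrays, and in Card14-/- 11.41 untreated and 11.96 and 11.95 after IMQ. Untreated arrays reached 11.70 and IMQ arrays began at 11.70, and the ranges overlapped on the 3 other scales. The response in WT was 0.01, and -0.03 under 75th percentile scaling, -0.02 after normexp and -0.01 in the authors' deposited table, so it had no settled sign. The response reached 0.55 in Card14-/-, where the untreated array was the lowest of all 12. Its average was 0.23 ± 0.09 (SE, adjusted p = 0.122), not past the threshold. It was 0.11 ± 0.08 (SD, n = 3) where both arrays lay on slide 1 and 0.41 ± 0.19 (SD, n = 2) where the IMQ arrays lay on slide 2.

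Irak4, the kinase recruited by MYD88, gave opposite readings on its probes. On the brightest, at chr15:94398405-94398463, untreated arrays lay between 8.10 and 8.33. After IMQ it read 7.76 in WT, 7.90 in Tlr7-/- and 7.74 in Tlr9-/-, all on slide 1, and 8.19, 8.26, 8.05 and 8.00 on the 4 arrays of slide 2. The average response was -0.30 ± 0.10 (SE, adjusted p = 0.0746). Within slide 1 the mean response was -0.41 ± 0.19 (SD, n = 3), and with the slide as a block, a fit that called 49.6% of all genes, Irak4 passed the threshold at -0.41 (adjusted p = 0.0124).

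The second Irak4 probe, at chr15:94387325-94387384, lies 11020 bases upstream and is assigned to another transcript. It read 6.09 to 6.33 on untreated arrays and 7.13 to 7.30 on the IMQ arrays of slide 1, a mean difference of 0.93 ± 0.09 (SD, n = 3). On slide 2 the IMQ arrays read 5.97 to 6.41, so they overlapped with untreated skin. Its average response of 0.54 ± 0.22 (SE, adjusted p = 0.119) was not called. Slide and genotype cannot be told apart for the 2 genotypes on slide 2, and no direction is given for Irak4 as a gene.

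Irf5, the transcription factor of the pathway, was read on probes that moved by different amounts. On the brightest, at chr6:29486901-29486960, it read 9.10 untreated and 9.41 after IMQ in WT, 8.94 and 9.31 in Tlr7-/-, and 9.24 and 9.35 in Tlr9-/-. Tlr7-/-Tlr9-/- had 9.32 untreated and 9.24 and 9.29 after IMQ, and Card14-/- had 8.98 untreated and 9.21 and 9.22 after IMQ. It was higher after IMQ in 4 genotypes and lower in Tlr7-/-Tlr9-/-. The average response was 0.19 ± 0.09 (SE, adjusted p = 0.149). With the slide as a block, where 49.6% of all genes were called, Irf5 passed the threshold at 0.26 (adjusted p = 0.0386, limma).

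The second Irf5 probe, which holds the polyadenylation hexamer shown above near its end, lies at chr6:29491799-29491858. It is 4838 bases downstream of the first and is assigned to a cDNA clone. Its untreated arrays lay between 6.49 and 6.80 and its IMQ arrays between 7.07 and 7.80, with no overlap. It read higher after IMQ in 5 of 5 genotypes, by 1.32 in WT, 0.75 in Tlr7-/-, 1.09 in Tlr9-/-, 0.62 in Tlr7-/-Tlr9-/- and 0.73 in Card14-/-. The share of all probes with either pattern is not given, so neither sets this probe apart. Tested probe by probe the average was 0.90 ± 0.12 (SE, adjusted p = 0.0119), past a threshold that 24.0% of all probes passed. The mean difference was 1.05 ± 0.28 (SD, n = 3) within slide 1 and 0.68 ± 0.08 (SD, n = 2) across slides.

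**Figure D2:**
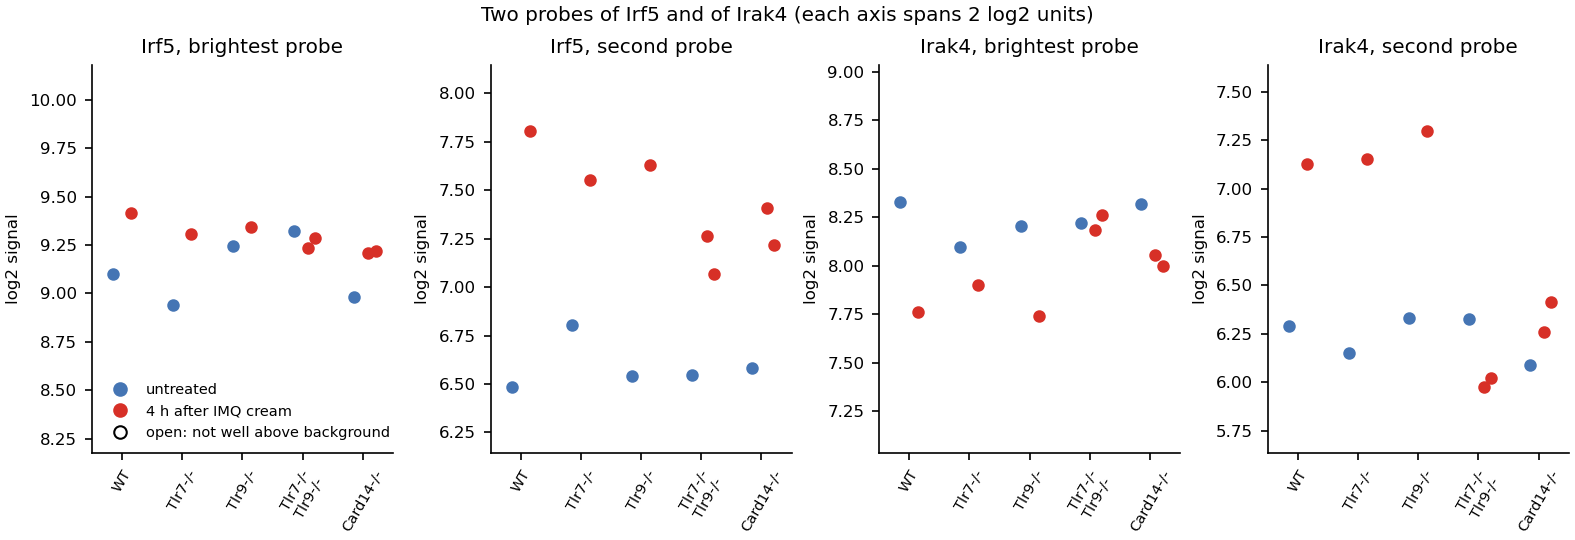
Log2 signal (y axis, each spanning 2 units) on both probes of Irf5 and of Irak4 in the 5 genotypes (x axis), 1 point per array, blue untreated and red after IMQ cream. The second Irf5 probe is higher after IMQ in every genotype, while the Irak4 probes move in opposite directions in WT, Tlr7-/- and Tlr9-/-.

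The average response compares IMQ-treated with untreated skin across the genotypes. Read on the brightest probe, 0 of 7 were called at an adjusted p under 0.05 in limma, while 26.2% of all genes were, 2533 up and 3782 down. The estimates ran from -0.30 for Irak4 to 0.23 for Myd88, with a median of 0.12, against -0.07 over all genes. Tlr7, the receptor for the drug, had -0.08 ± 0.30 (SE, adjusted p = 0.85), which became 0.26 without the Tlr7-/- pair and had the opposite sign under 75th percentile scaling (0.04), after normexp (0.07) and in the authors' deposited table (0.05). Tlr8 had 0.16 ± 0.12 (SE, adjusted p = 0.34). It was called under 75th percentile scaling at 0.33 (adjusted p = 0.0412, limma), where 6628 of all 24080 genes were called. Tlr9 had 0.12 ± 0.07 (SE, adjusted p = 0.218).

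**Figure D3:**
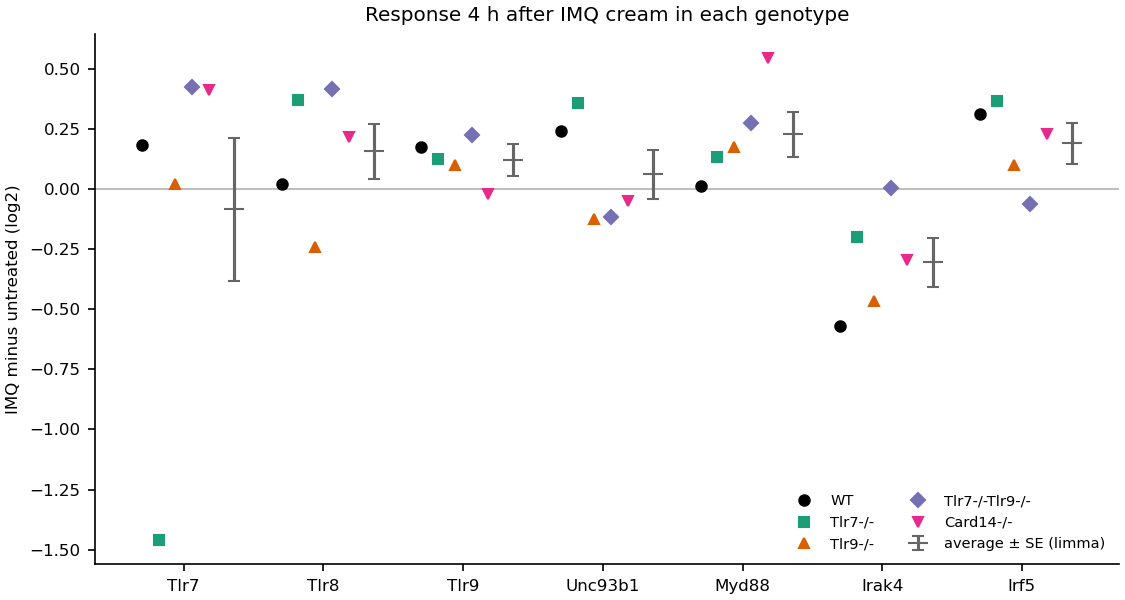
IMQ minus untreated on the log2 scale (y axis) for the brightest probe of the 7 genes (x axis), 1 symbol per genotype, with repeat arrays averaged; the grey bar is the average over genotypes ± SE from limma. Apart from Tlr7 in Tlr7-/- at -1.46, where the IMQ array is below background, all responses lie between -0.57 and 0.55.

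Within single genotypes a gene, read on its brightest probe, was called at an adjusted p under 0.05 and a difference of at least 1. In Tlr7-/- 1 of 7 was called, against 7.56% of all genes. That gene was Tlr7 itself, at -1.46 (adjusted p = 0.0116), with its IMQ array below background, at least 2.55-fold on this scale, while its second probe read 3.99 untreated and 4.45 after IMQ. The call was lost after normexp (-0.45), in the authors' deposited table (-0.63), with the replicate number as a block (adjusted p = 0.0533, limma) and without either Card14-/- IMQ array (adjusted p = 0.0588, limma). In the 4 other genotypes 0 of 7 were called, against 14.5% of genes in WT, 9.08% in Tlr9-/-, 6.16% in Tlr7-/-Tlr9-/- and 4.41% in Card14-/-. Tested probe by probe, the second Irf5 probe was called in WT (1.32, adjusted p = 0.0127), against 15.6% of probes, and in Tlr9-/- (1.09, adjusted p = 0.0248), against 9.77%. The second Irak4 probe was called in Tlr7-/- (1.002, adjusted p = 0.0193), against 7.32%. No other second probe was called in these genotypes, and none in Tlr7-/-Tlr9-/- or Card14-/-, against 5.51% and 3.79% of probes. Differences under the size limit but with an adjusted p under 0.05 were those of Irak4 in WT (-0.57) and Tlr9-/- (-0.47), Irf5 in WT (0.31) and Tlr7-/- (0.37), and Myd88 in Tlr7-/-Tlr9-/- (0.27) and Card14-/- (0.55). Unc93b1 in Tlr7-/- (0.36) and Tlr9 in Tlr7-/-Tlr9-/- (0.23) did so as well. The share of all genes past an adjusted p alone is not given. An unadjusted p under 0.05 (limma) was reached by 14530 of 24080 genes in WT, 11687 in Tlr7-/- and 12796 in Tlr9-/-. It was reached by 12113 in Tlr7-/-Tlr9-/- and 10483 in Card14-/-, so these 8 differences do not set the genes apart. With the replicate number as a block, or without any 1 of the 4 repeat arrays, only that of Irak4 in WT of these 8 kept an adjusted p under 0.05 (0.045 with the block, limma). These tests rest on 2 residual degrees of freedom from the repeat arrays, whose spread stands in for that of the groups with 1 array.

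Whether a response depended on Tlr7 was tested on the 5 differences, 2 from Tlr7-deficient and 3 from Tlr7-carrying genotypes. None of the 7 was called (limma), against 0.0% of all genes, of which 756 had an unadjusted p under 0.05. Tlr8 responded by 0.37 and 0.41 in the genotypes without Tlr7 and by 0.02, -0.24 and 0.22 in WT, Tlr9-/- and Card14-/-, a difference of 0.39 ± 0.19 (SE, adjusted p = 1.0). For Irak4 the difference was 0.35 ± 0.17 (SE). The level of the 7 genes did not pass for Card14 either, where 0 of 7 were called against 0.00415% of genes. That comparison sets Card14-/- against the mean of the 4 other genotypes, including those without Tlr7, which by itself gave Tlr7 a difference of 1.46. Against WT alone, Card14-/- differed by -0.14 for Tlr7 and by -0.40 for Unc93b1, the latter with an adjusted p of 0.595 (limma).

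**Figure D4:**
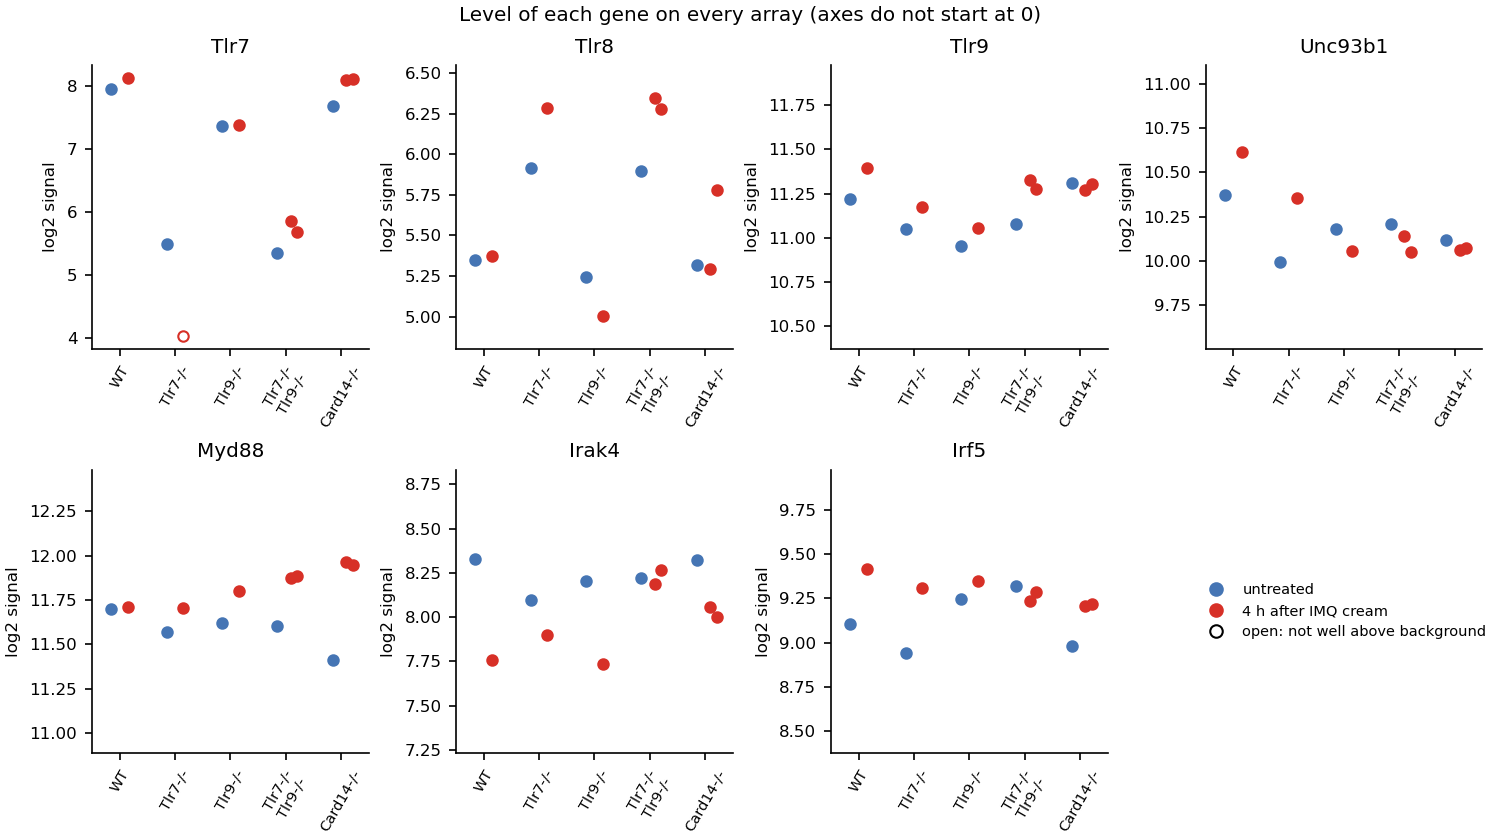
Log2 signal (y axis, not starting at 0) of the brightest probe of each gene on every array, by genotype (x axis), blue untreated and red 4 h after IMQ cream, with an open point where the probe is not well above background. The span over the 10 groups is 4.09 for Tlr7 and 1.31 for Tlr8, and between 0.44 and 0.62 for the other 5 genes.

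The order of the 10 group levels was read with a gap of 2 SD of the repeat arrays as the limit for a difference between neighbours. That SD comes from the 2 repeated IMQ groups, both on slide 2. It holds no spread between slides, and whether it holds any between pools is not known. For Tlr7 the limit was 0.15 and 6 of 9 gaps exceeded it, among them the step from 7.36 in untreated Tlr9-/- to 5.77 in Tlr7-/-Tlr9-/- after IMQ. Within the Tlr7-carrying groups, both Tlr9-/- groups stood below WT and Card14-/- on this probe, but on the second probe untreated Tlr9-/- (7.05) was above untreated Card14-/- (6.98). For Tlr8 the limit was 0.39 and 0 of 9 gaps exceeded it, so no neighbours in its order differed. That includes the step of 0.36 from 5.90 in untreated Tlr7-/-Tlr9-/- to 5.54 in Card14-/- after IMQ, which separates groups without and with Tlr7. For Myd88 5 gaps exceeded the limit, for Tlr9 and Irak4 3 each, and for Unc93b1 and Irf5 2 each. Across the 10 groups Tlr7 and Tlr8 had a Pearson r of -0.84 and Irak4 and Irf5 of -0.61, while the other pairs lay between -0.39 and 0.51. These describe 10 points that share genotypes, slides and treatment.

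The genes whose level followed each of the 7 most closely over these 10 groups were taken from 11285 or 11286 named genes with an SD of at least 0.2. Tlr7 was most like Ddx60 and Tlr1 (r = 0.82 for both), and Tlr8 most like Gm26510 (0.85) and Uts2r (0.81). Unc93b1 went with Lyz2, the lysozyme of macrophages and neutrophils (0.96), and Lamc3 (0.94). Tlr9 went with Thrsp (0.94) and Scarb1 (0.92), Myd88 with Pfdn4 (0.955) and Bloc1s2 (0.928), Irak4 with Clmn (0.977) and Cby1 (0.975), and Irf5 with Tas1r3 (0.89) and Fmnl1 (0.88). These are the highest of many correlations over 10 points and describe these arrays only.

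Parts of the wider TLR system were called in the average response. Of 12 other TLRs and co-receptors 3 rose and 1 fell, with a median of 0.39. Tlr5, the flagellin receptor, had 1.09 ± 0.21 (SE, adjusted p = 0.0185), the lipopolysaccharide co-receptor Cd14 0.76, and Tlr4, the lipopolysaccharide receptor, 0.48, although another Tlr4 probe read -0.34. Tlr12 fell by 0.63. In the Tlr7 effect on level 0 of the 12 were called, against 0.0% of all genes. All 12 estimates were below 0, with a median of -0.32 against 0.02 over all genes. The share of all genes below 0 is not given. Estimates above 0 were also few among other IRF genes (1 of 8), neutrophil markers (1 of 7) and T cell markers (1 of 6). They were more frequent among keratinocyte (6 of 7) and fibroblast markers (4 of 5).

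Of 30 adaptors, kinases and ubiquitin ligases measured, 2 rose and 3 fell, with a median of -0.02. Tnfaip3, the deubiquitinase A20 that restrains NF-kB, had 0.82 ± 0.10 (SE, adjusted p = 0.00888), and the kinase Irak2 had 0.50, with its other probes at 0.18 and 1.01. Peli3, an E3 ubiquitin ligase, fell by 0.90, Sarm1, an adaptor with NADase activity, by 0.49, and Ikbkg, the regulatory subunit of the IKK complex, by 0.54, with another probe at -0.17. Of 22 trafficking and processing factors 3 rose and 3 fell. The endolysosomal membrane protein Lamp5 (0.69), the protease Lgmn (0.50) and the transporter Slc15a3 (0.36) rose. The AP-3 adaptor subunits Ap3d1 (-0.32) and Ap3b1 (-0.25) and the ESCRT-0 subunit Hgs (-0.23) fell.

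Of 8 other IRF genes 0 rose and 2 fell. Irf4, a factor of lymphocytes and dendritic cells, had -0.59 ± 0.07 (SE, adjusted p = 0.00804), and its other probe read -1.29. The share called was 4 of 12, 5 of 30, 6 of 22 and 2 of 8 in these lists, beside the 26.2% of all genes, and no list is set apart by its count.

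**Figure D5:**
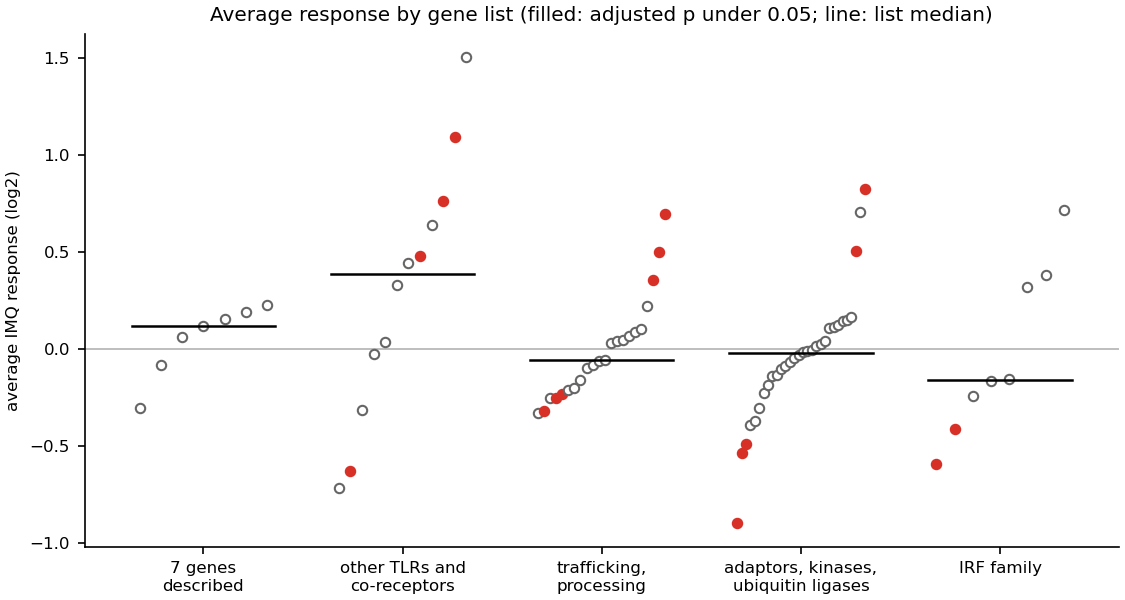
Average IMQ response on the log2 scale (y axis) of each gene in the 7 genes described and in 4 lists of the wider pathway (x axis), sorted within a list; filled points have an adjusted p under 0.05 and the line is the list's median. The 7 genes lie between -0.30 and 0.23 with 0 filled, and other TLRs reach 1.09 among the filled points.

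Markers of cells that carry these receptors were read in the average response. Of all genes 26.2% were called there, 2533 up and 3782 down, with a median of -0.07. The B cell markers, of which Cd79a was well above background on 1 array and Blk on none, summed to a log2 signal of 8.52 to 8.66 in untreated groups and 9.06 to 9.77 after IMQ, with 1 of 6 called up. The monocyte and macrophage markers summed to 16.42 to 16.97 untreated and 16.57 to 17.13 after IMQ, with 2 of 14 up and 1 down, and 13 of 14 estimates above 0. The plasmacytoid dendritic cell markers summed to 17.95 to 18.05 untreated and 17.96 to 18.07 after IMQ, with 1 of 8 up and 1 down. That sum is led by Ly6d, which keratinocytes also express, while Spib was well above background on 4 arrays and Klk1 on none. In the Tlr7 effect 0 of these genes were called, against 0.0% of all genes. The medians were -0.10, -0.13 and -0.16, against 0.02 over all genes. The part of these cells in the levels of the 7 genes was not tested. T cell markers summed to 12.34 to 12.59 untreated and 12.72 to 13.47 after IMQ (5 of 6 up, 1 down), dendritic and Langerhans cell markers to 15.78 to 16.06 and 16.03 to 16.55 (3 of 8 up, 2 down), and neutrophil markers to 14.93 to 15.18 and 14.87 to 15.82 (1 of 7 up). Endothelial markers summed to 11.42 to 12.0005 untreated and to 12.0446 to 12.96 after IMQ (3 of 4 up, 1 down). These ranges nearly met, while those of the B cell and T cell markers were also separate. The share of all genes separated by treatment is not given. Fibroblast markers summed to 17.29 to 19.16 untreated and 16.92 to 18.68 after IMQ (1 of 5 down). The keratinocyte markers of the labelled tissue were bright on all arrays, at 19.96 to 20.04 untreated and 19.92 to 20.00 after IMQ, with 3 of 7 down.

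Promoters were found in the RefSeq table, build GRCm38.p6, for 5 of the 7 genes, all but Tlr7 and Unc93b1. The 250 bases before the start were searched on both strands for the interferon regulatory factor core AANNGAAA, the NF-kB site core GGGNNTTCC and the GAS element TTCNNNGAA of STAT factors. These letters are in 21.3%, 4.98% and 7.02% of all 32851 promoters. Myd88 held the IRF core and a GAS element, which share 1 base, Tlr8 held a GAS element, and Tlr9, Irak4 and Irf5 held none of the 3. The Myd88 stretch at chr9:119340043-119340072, minus strand, is shown as the one with both, with the matches in capitals.
Myd88 promoter, 30 bases: ggcggagcTTCTCGGAAAGCGAAAgaagga
A match describes the letters and is no evidence of binding.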

How the data were processed

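Ear skin RNA was read on Agilent single-colour mouse arrays labelled with Cy3. The authors' deposited scanner files hold the processed signal, a background-corrected intensity, per the file headers from Feature Extraction 10.7.3.1, with probe positions on mm9; the submitters' processing notes give 10.5.1.1. The authors' deposited log2 table of the same arrays, whose centring the labels do not state, was an alternative.

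Control spots and 235 probes with outlier flags were left out, spots of a probe averaged, and log2 values quantile-normalized. The filter kept each probe that 2 or more arrays read well above background (37125 probes, 24080 genes, each read on its brightest probe, with symbols updated through RefSeq). The median SD of repeat arrays was 0.05, and the number of arrays limits the precision. Repeat arrays were averaged before the additive fits. limma 3.58.1 in R 4.3.3 (lmFit, eBayes, Benjamini-Hochberg over all genes) was used with 4 residual degrees of freedom for the average response and the locus effects, 3 for Tlr7 dependence and 2 within genotypes. A gene was called at an adjusted p under 0.05, and within genotypes also at a log2 difference of at least 1. The fits were tested on simulated data. The lowest signal well above background on an array, 3.63 to 4.38, was the floor for bounds on folds.

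The 7 genes were named on every probe. Pathway genes were named only where called, at most the 3 largest in each direction of a list. One called pathway gene is not reported here. The members and lists were chosen with earlier results of these data known. Alternatives were 75th percentile scaling, normexp (offset 50), the deposited table, other filters, every probe, all 12 arrays, the slide or replicate number as a block, Card14-/- against WT only, and left-out arrays.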

Additional observations from a re-analysis of the deposited data

Results flagged for a closer look

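Signal from probes that were not used to read a gene passed the threshold of the average response in 2 cases (limma, every probe tested by itself). Of all probes 24.0% passed it. The second Irf5 probe had 0.90 (adjusted p = 0.0119), and its untreated and IMQ arrays did not overlap. The share of all probes without such overlap is not given. The Tlr8 probe at chrX:163680628-163680685 had 0.98 (adjusted p = 0.0164) but was well above background on 2 of 12 arrays, so the size of that difference is not measured. No group had enough arrays for a test of single outlying arrays.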

How the results depend on the processing

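Counts of the 7 genes called were the same as reported under 68 of 75 alternatives that kept all samples and 58 of 60 that left one out. The Tlr7 effect called 0 to 1 of all genes under these alternatives and the Tlr7 dependence 0. An unchanged count of 0 there shows little. Counts over all genes shifted by more than a set limit under 30 of the 75 and 34 of the 60. In the average response 1 gene was called under 75th percentile scaling (Tlr8), beside 6628 of all 24080 genes. With all 12 arrays as separate values 2 were called (Irak4 at -0.29, Myd88 at 0.25), beside 9529 of all genes. With the slide as a block, also on 12 separate arrays, 2 were called (Irak4, Irf5), beside 11948 of all genes. The call of Tlr7 in Tlr7-/- went from 1 to 0 after normexp (-0.45), in the deposited table (-0.63) and with probes well above background on all arrays, where it was not tested. Left-out repeat arrays gave 0 to 1 calls there, with 0 without either Card14-/- IMQ array (adjusted p = 0.0588, limma). With the replicate number as a block it was 0 as well (adjusted p = 0.0533, limma); the numbers 1 and 2 occur only in the repeated IMQ groups and nothing says that they pair arrays. The causes were not tested.

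Signs that turned were those of small estimates. In the average response Tlr7 was 0.035 under 75th percentile scaling, 0.068 after normexp, 0.051 in the deposited table and -0.21 to 0.26 with a genotype left out, and Unc93b1 was -0.013 to 0.11. In the Tlr7 effect Tlr9 was 0.026 under 75th percentile scaling, 0.0041 with all 12 arrays, 0.013 with the slide block and -0.037 to 0.028 with a group left out. Myd88 was 0.030 under 75th percentile scaling, 0.0051 in the deposited table and -0.085 to 0.049 with a group left out, and Irf5 -0.15 to 0.0093.

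Over all genes, calls ranged from 4649 to 11948 in the average response (1359 to 5263 with a genotype left out), 1636 to 5791 in WT, 248 to 2718 in Tlr7-/- (193 to 1458 with a repeat array left out), 910 to 3627 in Tlr9-/- (0 to 1931), 0 to 2044 in Tlr7-/-Tlr9-/- (0 to 0), 0 to 1407 in Card14-/- (0 to 277), 6 to 89 in the Tlr9 effect (1 to 9), 0 to 12 in the Card14 effect and 0 to 1 in the Tlr7 effect. The number of arrays, with 2 repeated groups, limits every test, and readings near 4 on the log2 scale are limited by background.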
